A study of Sus scrofa with 8 samples.

Results

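Tropomyosins and the proteins that cap or extend the slow-growing (pointed) ends of actin filaments were followed in cultured pig muscle cells through 8 genes. These were the tropomyosin genes TPM1, TPM2, TPM3 and TPM4, the tropomodulin genes TMOD1 and TMOD3, and the leiomodin genes LMOD2 and LMOD3. They were taken by exact symbol from a table of 25285 genes, in which each symbol stood on 1 row, and all 8 passed the filter of a mean of at least 1 FPKM that left 12963 tested genes. FPKM counts sequenced fragments relative to transcript length and library size, so levels of different genes can be set side by side. LMOD2 and LMOD3 passed that filter only through the differentiated libraries, where they are high.

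The samples were cultured primary muscle cells of LYD pigs, collected either differentiated or undifferentiated. Females and males gave 2 libraries each in either state, numbered replicate 1 and replicate 2, with no treatment or genetic change named and no age given. The labels name the cells MuSCs in the protocol and give neither the differentiation time nor the medium. They do not say that replicates came from separate animals or cultures, and the spread behind each p-value is that between these libraries, which may be technical.

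Tropomyosins are coiled-coil proteins that lie end to end along actin filaments. In the sarcomere they carry troponin and block or open the myosin sites on actin, and outside it they stabilise filaments of the cytoskeleton. In mammals TPM1, TPM2 and TPM3 each give striated muscle forms as well as other forms through alternative exons and promoters, while TPM4 is best known for cytoskeletal forms. Tropomodulins bind tropomyosin and actin at the pointed end and stop growth and loss there. Leiomodins are related proteins of muscle that start or lengthen filaments at that end. A level per gene does not separate the muscle forms of a tropomyosin gene from its cytoskeletal forms.

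The depth in reads is unknown, because the table holds FPKM and whole reads were not recovered. A relative depth estimated from genes with low values, with the shallowest library at 1.00, was 1.00 to 1.61 in differentiated libraries and 1.65 to 2.24 in undifferentiated ones. Of 5 skeletal muscle markers found by symbol, the summed level was 2955 to 4272 FPKM in differentiated libraries and 492 to 835 FPKM in undifferentiated ones. Among them MYOD1 went the other way, at 80.1 to 105 FPKM in differentiated and 156 to 221 FPKM in undifferentiated libraries. The muscle intermediate filament DES was at 195 FPKM or more in every library. The summed levels in differentiated and undifferentiated libraries were 1133 to 1367 against 30.2 to 59.5 FPKM for 7 smooth muscle and pericyte markers (led by ACTA2, with MYH11 under 0.1 FPKM throughout) and 431 to 1128 against 107 to 321 FPKM for 6 fibroblast markers. They were at most 7.53 FPKM for 4 endothelial markers, 4.30 against 17.0 FPKM at most for 5 immune markers, 3.68 against 7.21 FPKM at most for 4 Schwann cell markers, and at most 1.69 FPKM for 2 adipocyte and 3 erythroid markers. The part of these other cell types in the results was not tested. In such bulk samples, fewer cells of a type and less RNA per cell cannot be told apart.

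Differentiated cells were first set against undifferentiated cells over both sexes together. TPM1, TPM2, TMOD1, LMOD2 and LMOD3 rose, and TPM3, TPM4 and TMOD3 fell. All 8 genes thus passed, 5 upward and 3 downward, at an adjusted p under 0.05 (limma, with Benjamini-Hochberg adjustment over every tested gene). Of all tested genes 18.0% rose and 31.9% fell, 50.0% in either direction. The median log2 fold change was 2.27 over the 8 genes and -0.18 over all tested genes. LMOD2 and LMOD3, which passed the filter only through the differentiated libraries, could enter only as rises. They raise both the count of rises and the median of the 8 genes. Median-ratio scaling raised the median of all genes by 0.201. It called 24.8% of tested genes as risen and 22.5% as fallen, so that rises made 52.4% of calls, against 36.1% in the values as deposited, while the 8 genes kept their directions and calls. Under quantile normalization, where 20.8% of tested genes rose and 25.5% fell, they kept them too. For each of the 8 genes the 4 differentiated libraries lay wholly above or wholly below the 4 undifferentiated ones, as was so for 47.3% of tested genes, 17.1% above and 30.2% below.

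**Figure D1:**
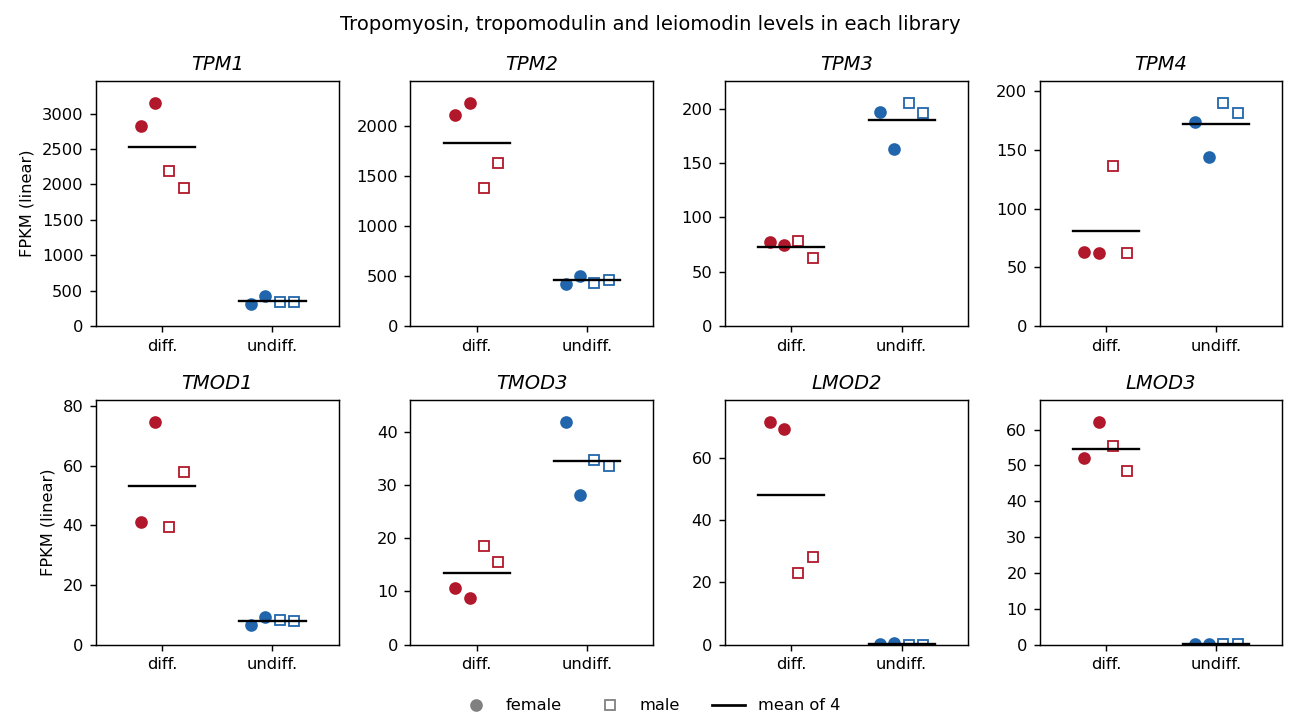
Level in FPKM of each gene on a linear axis from 0, with differentiated libraries (red) left of undifferentiated ones (blue), females as filled circles, males as open squares and a line at the mean of 4 libraries. In none of the 8 panels do the states overlap, and TPM4 in 1 differentiated male library stands at 136 FPKM against 62.3 to 62.7 FPKM in the other 3.

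TPM1 and TPM2 held the highest levels of the 8 genes in both states and rose. In the following, values run through female replicates 1 and 2 and then male replicates 1 and 2. TPM1, alpha-tropomyosin (ENSSSCG00000004570, Sscrofa10.2, chromosome 1, 120217106 to 120240145, minus strand), was at 2827, 3145, 2192 and 1948 FPKM in differentiated cells, against 309, 426, 336 and 335 FPKM in undifferentiated cells. The states were far apart. Both differentiated female libraries were above both male ones, where the sexes did not overlap, in either direction, for 42.7% of tested genes. Its mean was 2528 ± 554 FPKM in differentiated and 352 ± 51.4 FPKM in undifferentiated cells (SD, n = 4 libraries each), a ratio of 7.19 (log2 fold change 2.83 ± 0.133 SE on log2(FPKM + 1), limma adjusted p = 4.08e-05).

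TPM2, beta-tropomyosin (ENSSSCG00000005316, chromosome 1, 264127281 to 264134736, minus strand), was at 2107, 2225, 1375 and 1626 FPKM in differentiated cells, against 423, 503, 434 and 464 FPKM in undifferentiated cells. The states did not overlap, and the differentiated female libraries were again above the male ones. The means were 1833 ± 400.3 FPKM in differentiated and 456 ± 36.0 FPKM in undifferentiated cells (SD, n = 4 each, ratio 4.02, log2 fold change 1.98 ± 0.110 SE, limma adjusted p = 7.81e-05). Quantile normalization of all genes moved the log2 fold changes to 4.06 for TPM1 and 3.03 for TPM2. With genes under 300 bp left out, an alternative added after seeing this, quantile normalization gave 3.12 and 2.30. Among 12603 tested genes of at least 300 bp, TPM1 ranked between 11 and 20 in differentiated libraries and between 155 and 209 in undifferentiated ones. TPM2 ranked between 20 and 33 in differentiated libraries and between 131 and 163 in undifferentiated ones.

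TPM3 and TPM4 fell. TPM3 (ENSSSCG00000006556, chromosome 4, 104466976 to 104489463, plus strand), whose muscle form is typical of slow fibres, was at 77.6, 74.4, 77.9 and 62.3 FPKM in differentiated cells, against 197, 163, 205 and 196 FPKM in undifferentiated cells. The libraries of each state lay close together. The means were 73.1 ± 7.33 FPKM in differentiated and 190.0 ± 18.7 FPKM in undifferentiated cells (SD, n = 4 each, ratio 0.384, log2 fold change -1.37 ± 0.110 SE, limma adjusted p = 0.00029).

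TPM4 (ENSSSCG00000013849, chromosome 2, 61156657 to 61172692, plus strand) was at 62.7, 62.3, 136 and 62.3 FPKM in differentiated cells, against 174, 144, 190 and 181 FPKM in undifferentiated cells. In differentiated cells 3 libraries were nearly equal and male replicate 1 stood apart, just below the lowest undifferentiated library. The means were 81.0 ± 37.0 FPKM in differentiated and 172 ± 19.9 FPKM in undifferentiated cells (SD, n = 4 each, log2 fold change -1.16 ± 0.243 SE, limma adjusted p = 0.00931). Without differentiated male replicate 1 the log2 fold change was -1.44 (adjusted p = 0.000871). That library also had the highest levels of the fibroblast genes PDGFRA, DCN and LUM among the differentiated libraries, with PDGFRA at 4.50 FPKM against 0.570, 0.810 and 1.15 FPKM and DCN at 21.3 FPKM against 1.18, 4.20 and 6.38 FPKM. Its level of COL1A1 was 783 FPKM, against 165, 178 and 499 FPKM. COL3A1, also of the fibroblast list, differed little, at 312 FPKM against 296, 247 and 307 FPKM. Of the smooth muscle and pericyte list, PDGFRB was at 46.7 FPKM there, against 9.58, 11.6 and 18.1 FPKM. ACTA2 and MYH11 of that list were not highest in this library. The part of other cell types in the TPM4 value was not tested.

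The makeup of the tropomyosin transcripts was read from the share of each gene in the summed FPKM of the 4 genes, which does not depend on the scaling between libraries. The sum itself was 4515 ± 913 FPKM in differentiated and 1170 ± 55.0 FPKM in undifferentiated cells (SD, n = 4 each). TPM1 made 55.7, 57.1, 58.0 and 52.7% of it in differentiated cells, against 28.0, 34.5, 28.9 and 28.5% in undifferentiated cells. Its mean share was 25.9 percentage points higher in differentiated cells (two-sided exact permutation test, p = 0.0286, adjusted over 6 shares p = 0.0343). With 4 libraries against 4, 0.0286 is the smallest p this test can give. The shares of the 4 genes make up the whole, so a higher TPM1 share is not independent of the lower TPM3 and TPM4 shares. The p-values of these shares are not separate results.

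TPM2 made 41.5, 40.4, 36.4 and 44.0% in differentiated cells, against 38.4, 40.7, 37.3 and 39.5% in undifferentiated cells. These ranges overlapped, and the mean differed by 1.61 points (exact permutation p = 0.4, adjusted p = 0.4). It was 3.01 points without differentiated male replicate 1, 0.479 without differentiated male replicate 2 and 1.05 without undifferentiated male replicate 1. TPM2 thus rose in level while a change of its share was not detectable with these libraries.

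TPM3 made 1.66 ± 0.301% in differentiated and 16.3 ± 2.17% in undifferentiated cells, and TPM4 made 1.92 ± 1.15% and 14.8 ± 2.12% in those states (SD, n = 4 each). Both shares were lower in differentiated cells. The difference was -14.7 points for TPM3 (exact permutation p = 0.0286, adjusted p = 0.0343) and -12.9 points for TPM4, with the same p-values. As both genes were lower and the tropomyosin sum higher in every differentiated library, these p-values follow from the levels and are no separate results. Within each library TPM1 was above TPM2 in all 4 differentiated libraries, with ratios of 1.20 to 1.59, and below it in all 4 undifferentiated ones, with ratios of 0.722 to 0.847. TPM3 over TPM4 was 1.08 to 1.13 in undifferentiated libraries. In differentiated libraries that ratio was 1.24, 1.19 and 1.00, with 0.571 in male replicate 1.

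**Figure D2:**
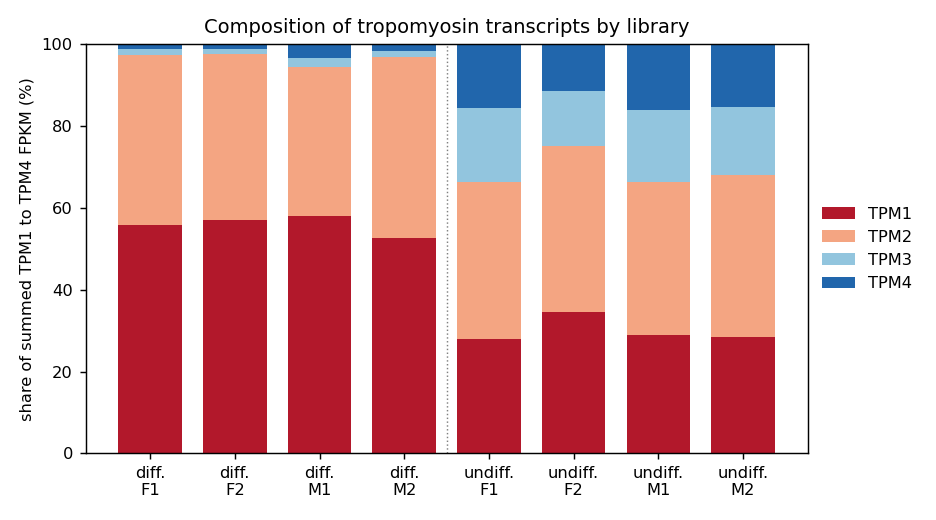
Share of each tropomyosin gene, in percent of the summed FPKM of TPM1 to TPM4, in each of 4 differentiated (left) and 4 undifferentiated (right) libraries, F for female and M for male. TPM1 fills 52.7 to 58.0% of the bars of differentiated cells and 28.0 to 34.5% of the others, while TPM3 and TPM4 shrink to thin bands in differentiated cells.

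The tropomodulins moved in opposite directions. TMOD1 (ENSSSCG00000023010, chromosome 1, 267545296 to 267646882, minus strand), the tropomodulin that caps thin filaments of striated muscle and is also found in red blood cells, was at 41.1, 74.7, 39.4 and 57.9 FPKM in differentiated cells, against 6.39, 9.38, 8.12 and 7.89 FPKM in undifferentiated cells. It rose clear of the undifferentiated range in every library, with a spread of 1.90 times between the lowest and highest differentiated library (log2 fold change 2.56 ± 0.238 SE, limma adjusted p = 0.000474). The summed level of the 3 erythroid markers found did not pass 1.39 FPKM in any library. TMOD1 overlaps 2 genes on the opposite strand, TSTD2 and NCBP1, and the strand setting of the quantification is not given in the sources used here. Neither passed the test, with log2 fold changes of -0.12 for TSTD2 (limma adjusted p = 0.466) and -0.22 for NCBP1 (adjusted p = 0.0851). Their mean levels in differentiated and undifferentiated cells were 4.81 and 5.33 FPKM for TSTD2 and 26.9 and 31.4 FPKM for NCBP1. The mean of TMOD1 in undifferentiated cells was 7.95 FPKM. The part of these 2 genes in the TMOD1 level was not tested.

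TMOD3 (ENSSSCG00000004626, chromosome 1, 132955318 to 133000013, minus strand), the form made in most cell types, was at 10.7, 8.68, 18.6 and 15.6 FPKM in differentiated cells, against 41.9, 28.1, 34.7 and 33.6 FPKM in undifferentiated cells. It fell in both sexes, and the differentiated male libraries were above the female ones. The mean was 13.4 ± 4.51 FPKM in differentiated and 34.6 ± 5.65 FPKM in undifferentiated cells (SD, n = 4 each, log2 fold change -1.35 ± 0.153 SE, limma adjusted p = 0.000927). The ratio of TMOD1 to TMOD3 was 3.83, 8.61, 2.12 and 3.71 in differentiated cells, against 0.153, 0.333, 0.234 and 0.235 in undifferentiated cells. TMOD1 was thus the higher of the pair in every differentiated library and TMOD3 in every undifferentiated one. As a share of their sum, TMOD1 made 78.9 ± 8.83% in differentiated and 19.1 ± 4.80% in undifferentiated cells (SD, n = 4 each). Its share was 59.8 points higher in differentiated cells (exact permutation p = 0.0286, adjusted p = 0.0343). As TMOD1 was higher and TMOD3 lower in every differentiated library, this p-value follows from the levels and is no separate result.

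Both leiomodins were near 0 in undifferentiated cells and rose. LMOD2 (ENSSSCG00000016605, chromosome 18, 25401377 to 25409330, minus strand), the leiomodin best known from the heart, was at 71.6, 69.3, 22.9 and 28.3 FPKM in differentiated cells, and in undifferentiated cells at 0.0717 and 0.359 FPKM in females and listed at 0 in both males. All differentiated libraries lay far above, and the females above the males (log2 fold change 5.31 ± 0.128 SE, limma adjusted p = 4.79e-06). LMOD3 (ENSSSCG00000011508, chromosome 13, 55680244 to 55684873, minus strand), a leiomodin of skeletal muscle whose loss causes nemaline myopathy in humans, was at 52.1, 62.2, 55.4 and 48.3 FPKM in differentiated cells, against 0.164, 0.264, 0.0726 and 0.140 FPKM in undifferentiated cells. Its differentiated libraries were within 1.29 times of each other (log2 fold change 5.58 ± 0.111 SE, limma adjusted p = 2.56e-06). The pseudocount of 1 understates both changes, since with 0.1 they were 7.99 for LMOD2 and 7.76 for LMOD3.

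Together the leiomodins made 70.5, 61.2, 57.5 and 51.0% of the summed FPKM of the 4 pointed-end genes in differentiated cells, against 0.486, 1.63, 0.169 and 0.337% in undifferentiated cells (difference of means 59.4 points, exact permutation p = 0.0286, adjusted p = 0.0343). With both leiomodins near 0 in undifferentiated cells, this p-value follows from the levels and is no separate result. TMOD3 made 4.04 to 13.6% of the summed FPKM of the 4 pointed-end genes in differentiated and 73.8 to 86.3% in undifferentiated cells. The sum was 169 ± 34.5 FPKM in differentiated and 42.8 ± 4.31 FPKM in undifferentiated cells (SD, n = 4 each). Per 100 FPKM of tropomyosin, the pointed-end genes had 3.46, 3.90, 3.60 and 4.06 FPKM in differentiated cells, against 4.40, 3.09, 3.68 and 3.53 FPKM in undifferentiated cells. That ratio, chosen after its values were seen, overlapped between the states, although both sums were higher in every differentiated library.

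**Figure D3:**
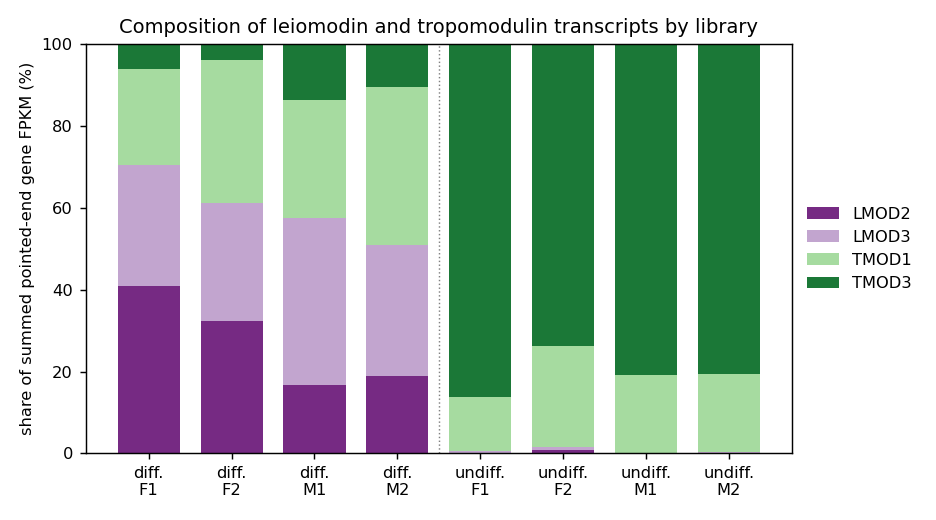
Share of LMOD2, LMOD3, TMOD1 and TMOD3, in percent of their summed FPKM, in each of 4 differentiated (left) and 4 undifferentiated (right) libraries, F for female and M for male. TMOD3 fills 73.8 to 86.3% of the bars of undifferentiated cells, and the leiomodins fill 51.0 to 70.5% of those of differentiated cells.

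By mean level, the order in differentiated cells was TPM1, TPM2, TPM4, TPM3, LMOD3, TMOD1, LMOD2 and TMOD3. Neighbours in that order had overlapping ranges except TPM2 and TPM4, TPM3 and LMOD3, and LMOD2 and TMOD3. The place of TPM4 before TPM3 rests on 1 differentiated library, male replicate 1, the only one where TPM4 was higher. In undifferentiated cells the order was TPM2, TPM1, TPM3, TPM4, TMOD3, TMOD1, LMOD3 and LMOD2, with overlap between TPM2 and TPM1, between TPM3 and TPM4 and between LMOD3 and LMOD2. Within libraries TPM2 was nevertheless above TPM1, and TPM3 above TPM4, in all 4 undifferentiated libraries.

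**Figure D4:**
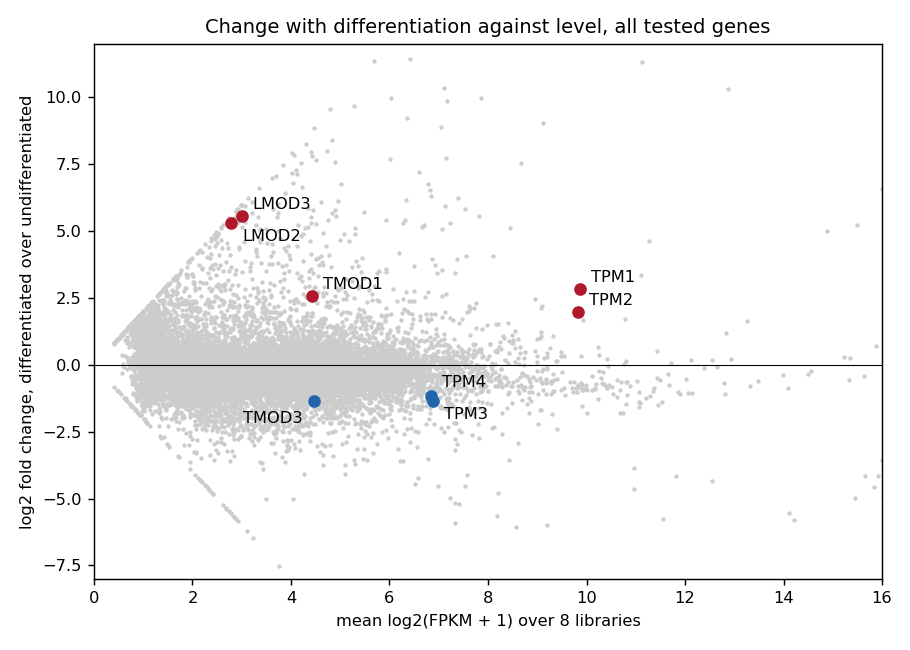
Log2 fold change of differentiated over undifferentiated cells on log2(FPKM + 1) against the mean log2(FPKM + 1) over 8 libraries, for all 12963 tested genes (grey, 113 of them outside the axes) and the 8 genes (red where they rose, blue where they fell). TPM1 and TPM2 lie at the high end of the level axis, and the leiomodins lie on the upper edge, where genes near 0 in undifferentiated cells stand.

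Within each sex the directions were the same. In females 5 of the 8 genes rose and 3 fell, where 12.5% of tested genes rose and 23.3% fell, 35.8% in all. In males 5 rose, 2 fell and TPM4 did not pass (log2 fold change -1.0 ± 0.344 SE, limma adjusted p = 0.0703), where 12.9% of tested genes rose and 20.1% fell. Without differentiated male replicate 1 the TPM4 change in males was -1.56 (adjusted p = 0.00568), and without differentiated male replicate 2 it was -0.44 (adjusted p = 0.116). It was also called with genes under 300 bp left out (adjusted p = 0.0478). In females TPM4 was called (log2 fold change -1.33, adjusted p = 0.0282), but not with median-ratio scaling (adjusted p = 0.0579) nor without any 1 of 6 libraries, all but the differentiated males (adjusted p = 0.0519 to 0.133).

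The difference of the state effect between the sexes was tested directly. No gene of the 8 passed (limma, lowest adjusted p = 0.804), where 0.0231% of tested genes did, and 2 of the 8 had an unadjusted p under 0.05, where 6.03% of tested genes did. These were LMOD2 (log2 difference 1.16, female effect minus male effect, 95% interval 0.54 to 1.79) and TMOD3 (-0.77, interval -1.51 to -0.02). The LMOD2 difference rests on the pseudocount, since it was -0.02 with 0.1 in place of 1. The TMOD3 difference was -0.49 without undifferentiated female replicate 1 and -1.05 without undifferentiated female replicate 2. Averaged over the states, females and males differed in 0 of the 8 genes (lowest limma adjusted p = 0.228), where 0.0849% of tested genes passed. With unadjusted p under 0.05 the count was 3 of 8 (TPM2, TMOD3 and LMOD2), against 9.73% of tested genes.

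In differentiated cells alone, a contrast added after the values were seen, 0 of the 8 genes passed (lowest limma adjusted p = 0.142), where 0.0463% of tested genes did. At an unadjusted p under 0.05 there were 4, TPM1, TPM2, TMOD3 and LMOD2, where 12.4% of tested genes did so. Both female libraries lay above both male ones in TPM1, TPM2 and LMOD2 and below them in TMOD3, without overlap. That was so for 4 of the 8 genes, near the share over all genes. Of tested genes 42.7% did not overlap between the sexes in these 2 against 2 libraries. The log2 differences, female minus male, were 0.53 for TPM1, 0.53 for TPM2, 1.43 for LMOD2 (95% interval 0.99 to 1.88) and -0.76 for TMOD3 (interval -1.29 to -0.23). These intervals are not adjusted for the number of genes, and the 4 genes were named because they did not overlap. Myogenin, MYOG, which drives terminal differentiation, was at 1519 and 1244 FPKM in differentiated females, against 791 and 1054 FPKM in differentiated males. COL1A1 was at 165 and 178 FPKM in those females, against 783 and 499 FPKM in those males. Other markers of the same lists differed less. MYOD1 was at 105 and 97.2 FPKM in those females, against 80.1 and 97.5 FPKM in those males. For COL3A1 the levels were 296 and 247 FPKM against 312 and 307 FPKM. The part of cell makeup in these differences was not tested.

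The other genes of the actin filament were taken from lists by role. Of the sarcomeric thin filament list, 13 of 16 genes were found by symbol and 12 were tested. Of these, 11 rose, 0 fell and 1 did not pass, where 18.0% of all tested genes rose and 31.9% fell. The median log2 fold change was 5.19. NEBL stood on 2 rows, and the row with the higher mean, which was used, was under the filter. That row went the other way, with means of 0 FPKM in differentiated and 1.34 FPKM in undifferentiated cells. Skeletal alpha-actin ACTA1 (log2 fold change 11.44) and fast troponin C TNNC2 (log2 9.68) rose most. Both passed the filter only through the differentiated libraries. KLHL40, a muscle kelch protein known in mice to stabilise LMOD3, was at 105 ± 26.2 FPKM in differentiated and 3.11 ± 2.95 FPKM in undifferentiated cells (log2 4.91, limma adjusted p = 0.000361). TPM1 and TPM2, the tropomyosins that rose, thus had smaller log2 fold changes than that list's median, from 309 to 503 FPKM in undifferentiated cells.

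Beyond the 8 genes, the related tropomodulins TMOD2 and TMOD4 were found by symbol. TMOD4, a form of skeletal muscle, was at 10.6, 12.4, 4.48 and 3.67 FPKM in differentiated cells, against 0.115, 0.234, 0.0658 and 0.307 FPKM in undifferentiated cells (log2 fold change 2.76 ± 0.166 SE, limma adjusted p = 0.000106). As with LMOD2, its differentiated female libraries were above the male ones, where the sexes did not overlap in 42.7% of tested genes. Like LMOD2 and LMOD3, TMOD4 passed the filter only through the differentiated libraries. TMOD2, the neuronal form, averaged 0.308 FPKM in differentiated and 1.35 FPKM in undifferentiated cells and was under the filter.

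Of 9 tested genes for filament ends and turnover, 2 rose, 6 fell and 1 did not pass, with a median log2 fold change of -0.62, where 18.0% of all tested genes rose and 31.9% fell. Under quantile normalization 2 rose and 3 fell. The actin monomer binder CAP2 (log2 2.86) and the severing factor DSTN (log2 0.94) rose, and cofilin CFL1 (log2 -1.61) and the cyclase-associated protein CAP1 (log2 -1.55) fell. Of 12 tested genes of cytoskeletal filaments and stress fibres, 4 rose, 5 fell and 3 did not pass, with a median of 0.14, beside the same 18.0% and 31.9% of all tested genes. The balance turned with the scaling, since 6 rose and 4 fell under median-ratio scaling and 5 rose and 5 fell under quantile normalization. The regulatory light chain MYL9 (log2 5.85) and calponin CNN2 (log2 1.79) rose, while the alpha-actinin ACTN1 (log2 -1.31) and the non-muscle myosin MYH9 (log2 -1.30) fell. TPM3, TPM4 and TMOD3, with log2 fold changes of -1.16 to -1.37, lay near these falls.

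**Figure D5:**
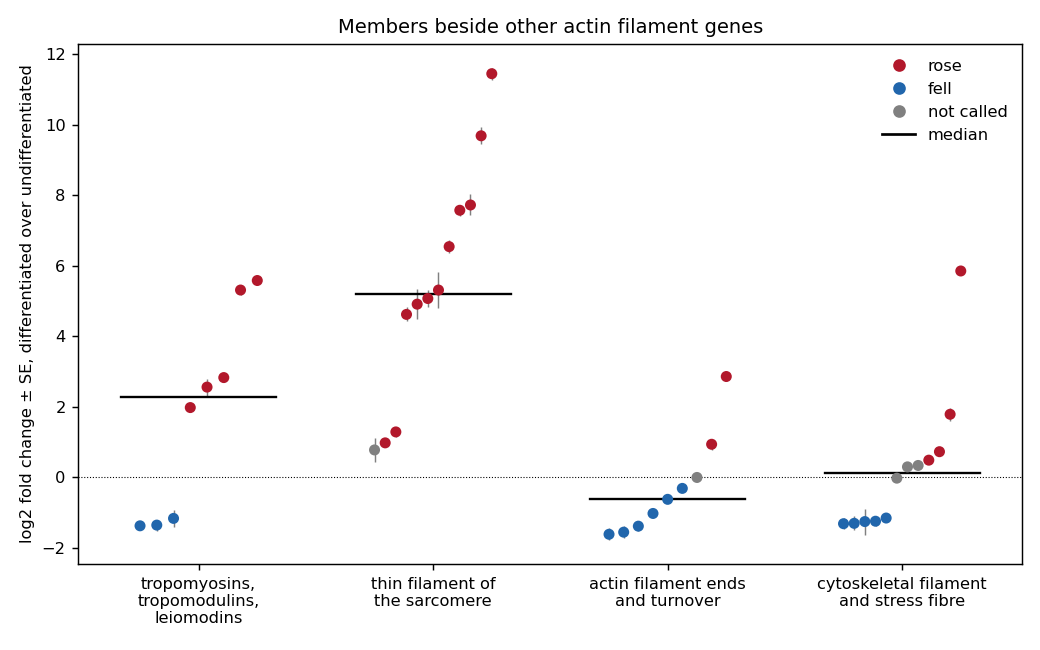
Log2 fold change ± SE of differentiated over undifferentiated cells for the 8 genes and for the tested genes of 3 lists, red where they rose, blue where they fell, grey where they did not pass, with a line at each median. The 3 falls among the 8 genes lie between -1.37 and -1.16, at the level of the falls among the cytoskeletal genes, and the medians are 2.27, 5.19, -0.62 and 0.14 from left to right.

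The genes with the most similar profiles were sought among 10181 tested genes with a symbol and at least 300 bp, by the root mean square difference of log2(FPKM + 1) over the 8 libraries after centring each gene on its own mean. Pearson's r between the profiles is a description over 8 libraries that share state and depth. For TPM1 the nearest was DTNA, a dystrobrevin of the dystrophin complex (difference 0.117, r = 0.998), then CAP2 (0.175) and CAND2 (0.179). For TPM2 they were NES, the intermediate filament protein nestin (0.124, r = 0.994), GRIP2 (0.124) and TENM3 (0.136). TPM3 was nearest to LGALS1, galectin-1 (0.0699, r = 0.995), with OCRL also close (0.0902), and TPM4 to TRIM37 (0.0942, r = 0.990), TMEM59L (0.0985) and MBOAT1 (0.144).

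TMOD1 was nearest to LRP4, the agrin receptor of the neuromuscular junction (difference 0.173, r = 0.991), ANO5 (0.188) and MTSS1 (0.193). TMOD3 was nearest to PPP2R1B (0.108, r = 0.991), ADSS2 (0.108) and ACTN1 (0.120). LMOD3 lay close to TXLNB (0.120, r = 0.999), HRC, a calcium-binding protein of the sarcoplasmic reticulum (0.145), and SVIL, the actin-binding supervillin (0.158). For LMOD2 the nearest were further off, with TM7SF2 at 0.305, MYO18B, a sarcomeric myosin, at 0.360 and CPT1B at 0.364. Among the 8 genes themselves the nearest pairs were TPM4 with TMOD3 (0.281, r = 0.926) and TPM1 with TMOD1 (0.308, r = 0.978).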

How the data were processed

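Per the labels' protocols, RNA was extracted with TRIzol and sequenced as 100-bp paired ends from libraries of a stranded total RNA kit, while the labels give the molecule as polyA RNA. The deposited FPKM values came, per the submitters' processing notes, from Cufflinks 2.2.1 and TopHat2 2.0.12.1 after cutadapt 1.6, with the build Sscrofa10.2. Settings are not given in the sources used here, and FPKM carry no read counts, so no count test was run. Genes averaging 1 FPKM or more were tested as log2(FPKM + 1) with limma 3.58.1 in R 4.3.3 (trended eBayes, 4 group means of state and sex without a block, 4 residual degrees of freedom and 2.09 prior ones), adjusted by Benjamini and Hochberg over all tested genes. Shares were compared by exact permutation tests in SciPy 1.17.1. The scripts were tested on simulated data. Of the table's genes, 16274 carried a symbol and 1841 were named from an Ensembl identifier table. Intervals are limma's 95% intervals.

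The 8 genes, the lists and the tests were chosen with earlier results of these data known. Named genes outside the 8 were, by rule, at most 2 rises and 2 falls per list and the 3 nearest profiles of each gene, of which 1 is not reported here. KLHL40, NEBL, TMOD2 and the markers named beside results were chosen after their values were seen. Alternatives were a pseudocount of 0.1, no filter, at least 1 FPKM in at least 4 libraries, median-ratio and quantile scaling, genes under 300 bp left out, no sex term, a replicate block and each library left out.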

Additional observations from a re-analysis of the deposited data

Results flagged for a closer look

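The 4 libraries of each state were checked for 1 library standing apart, by Dixon's test at its 95% critical value, for the 8 levels and the 6 shares. Of these 28 groups 2 were singled out, and chance gives about 1 in 20.

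TPM4 was at 136 FPKM in differentiated male replicate 1, against 62.7, 62.3 and 62.3 FPKM in the other differentiated libraries, a gap of 0.994 of the whole range. Among differentiated libraries that one was highest in 3 of the 8 genes, TPM3, TPM4 and TMOD3, and lowest in 3, TPM2, TMOD1 and LMOD2. Over the 12963 tested genes it was highest in 3853 and lowest in 3118.

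The TPM1 share of the summed tropomyosins was 34.5% in undifferentiated female replicate 2, against 28.0, 28.9 and 28.5% in the other undifferentiated libraries, a gap of 0.867 of the range. In that library MYOG was at 129.6 FPKM, against 66.0, 53.6 and 40.5 FPKM, and DES at 375 FPKM, against 195, 261 and 221 FPKM. Whether these levels bear on the share was not tested.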

How the results depend on the processing

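All 8 genes kept their direction and their call in the state comparison under each of the 17 alternatives, with adjusted p of at most 0.0381, reached by TPM4 without undifferentiated female replicate 1. The LMOD2 difference between the sexes in the state effect was -0.02 with a pseudocount of 0.1. Without the filter 1 gene of the thin filament list and 1 of the other tropomodulin family fell, both untested in the main analysis. Under quantile normalization 3 genes of filament ends and turnover fell, and the cause was not tested.

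Leaving out 1 library moved the difference in share, in percentage points, between 25.2 and 27.4 for TPM1, between 0.479 and 3.01 for TPM2, between -15.7 and -14.1 for TPM3, between -13.9 and -12.4 for TPM4, between 56.3 and 63.5 for TMOD1 and between 55.9 and 62.4 for the leiomodins. The smallest exact p is then 0.0571, which all but TPM2 reached. The replicate block gave the same differences of 25.9, -14.7, -12.9, 59.8 and 59.4, with an exact p of 0.125, the smallest that sign flips of 4 pairs allow. With the replicate block in limma 5 of the 8 genes rose and 3 fell, and 6154 genes were called in all, against 6476 without it. Deviations of same-numbered libraries correlated at 0.0684 in females and -0.0264 in males, and the numbers were not taken to pair the samples. That check ran over all tested genes, among them short genes with a wide spread, and cannot exclude a pairing.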

Other observations

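TPM1, TPM2, TMOD1 and TMOD3 lie on chromosome 1 of Sscrofa10.2, TPM3 on chromosome 4, TPM4 on chromosome 2, LMOD3 on chromosome 13 and LMOD2 on chromosome 18. Of the 16 nearest tested genes on either side of the 8 genes, 3 rose, 4 fell and 9 did not pass, with a median log2 fold change of -0.14. Of all tested genes 18.0% rose and 31.9% fell, 50.0% in either direction. The 3 rises, in number near the share over all tested genes, were all beside a leiomodin. ASB15, a muscle ubiquitin ligase adaptor 16174 bp from LMOD2, averaged 4.24 FPKM in differentiated and 0.195 FPKM in undifferentiated cells (log2 fold change 2.13, limma adjusted p = 0.000662). ARL6IP5, 10271 bp from LMOD3, averaged 166 FPKM in differentiated and 42.2 FPKM in undifferentiated cells (log2 1.96, limma adjusted p = 4.63e-05), and FRMD4B, 49100 bp away on the other side, had a log2 fold change of 2.80 (limma adjusted p = 0.000284). ASB15 and FRMD4B passed the filter only through the differentiated libraries. WASL, the remaining neighbour of LMOD2, had a log2 fold change of -0.14 and did not pass. These genes were chosen for their position after the values of the 8 genes were seen.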
